A study of Mus musculus with 6 samples.

Results

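The genes described here are 41 genes of the T cell receptor complex and of the signalling steps closest to it, out of 22607 genes in the deposited expression table of mouse CD4 T cells. They were chosen by name, and all 41 were found. Their values come from 66 RefSeq transcripts, 65 of which carry the gene's symbol in the table. RNA was sequenced from 6 libraries of WT C57/BL6 CD4 T cells. The cells of 3 libraries had been transduced with MigR1 expressing Blimp-1, the transcriptional repressor encoded by Prdm1, and those of 3 with MigR1 alone, the empty vector. Both vectors also express GFP, which was used to sort the transduced cells. All cells had been sorted from spleen and lymph node as naive (CD4+ CD44lo CD62L+ CD25neg) and activated on plates coated with anti-CD3 and anti-CD28 (10 ug/ml) while IL-4 and IFN-gamma were blocked, a condition called Th0. They were transduced after 36 hours and harvested 2 days later, although another label gives 3 days of activation. The labels call the 3 biological replicates independent and give about 0.5 M cells per sort. Every library therefore comes from cells whose T cell receptor had been engaged by antibody. The added Blimp-1 came from a retroviral vector, in WT cells that keep their own Prdm1 gene. The comparison asks how transcripts of this machinery differ between activated T cells with and without added Blimp-1.

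As background, the T cell receptor has no enzyme activity of its own and signals through the CD3 chains and the zeta chain. Their phosphorylation by Lck recruits the kinase Zap70, which phosphorylates the scaffold Lat, and complexes built on Lat activate phospholipase C gamma, Ras and the NF-kB and NFAT pathways. Phosphatases, ubiquitin ligases and diacylglycerol kinases limit the signal, and in activated T cells many of these brakes are expressed together with the receptor. Blimp-1 is known as a repressor that promotes effector and exhausted states of T cells, and the core of its recognition motif is GAAAG.

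Promoter sequences are shown for some of the members, and no member was called with all pairs. Cbl had the largest difference between the vectors before the correction for length and GC content given below. Lat and Sla2 are the 2 genes with the smallest p-values among those lower with Blimp-1. Themis and Cblb had smaller p-values in the blocked limma fit than Lat and Sla2, and their promoters are not shown. Also shown are the 2 starts of Lck, whose use is described further on. Each is the 250 bases before a RefSeq start site (build GRCm38.p6), written 5′ to 3′ on the strand of the gene, and capitals mark GAAAG or its reverse complement CTTTC. The nearest measured transcript of each gene starts within 143 bases of that site in GENCODE.

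Cbl (chr9:44234047-44234296, minus strand): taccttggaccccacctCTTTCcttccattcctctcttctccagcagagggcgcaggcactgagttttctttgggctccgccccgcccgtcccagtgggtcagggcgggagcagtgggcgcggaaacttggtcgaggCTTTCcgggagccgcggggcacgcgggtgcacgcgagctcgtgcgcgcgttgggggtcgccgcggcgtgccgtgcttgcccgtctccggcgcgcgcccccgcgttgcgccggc

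Lat (chr7:126369569-126369818, minus strand): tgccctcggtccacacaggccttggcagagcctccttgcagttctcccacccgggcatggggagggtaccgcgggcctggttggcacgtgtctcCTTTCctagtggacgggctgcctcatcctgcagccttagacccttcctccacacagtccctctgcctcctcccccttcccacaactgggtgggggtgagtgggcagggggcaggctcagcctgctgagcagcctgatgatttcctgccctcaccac

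Sla2 (chr2:156887222-156887471, minus strand): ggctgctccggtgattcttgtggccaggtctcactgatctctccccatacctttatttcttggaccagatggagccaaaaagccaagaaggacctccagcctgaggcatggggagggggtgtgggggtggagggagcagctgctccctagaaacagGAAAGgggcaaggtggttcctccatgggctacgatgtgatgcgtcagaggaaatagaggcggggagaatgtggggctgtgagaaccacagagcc

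Lck upstream start (chr4:129573642-129573891, minus strand): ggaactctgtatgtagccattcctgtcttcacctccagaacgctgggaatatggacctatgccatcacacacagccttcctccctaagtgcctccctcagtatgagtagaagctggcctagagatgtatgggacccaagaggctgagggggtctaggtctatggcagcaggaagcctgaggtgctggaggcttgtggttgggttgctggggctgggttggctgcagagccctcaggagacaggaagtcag

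Lck downstream start (chr4:129558373-129558622, minus strand): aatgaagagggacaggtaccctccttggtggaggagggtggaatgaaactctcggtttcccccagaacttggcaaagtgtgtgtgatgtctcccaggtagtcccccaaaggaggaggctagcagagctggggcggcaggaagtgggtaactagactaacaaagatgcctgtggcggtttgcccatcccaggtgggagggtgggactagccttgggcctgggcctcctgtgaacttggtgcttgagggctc

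GAAAG was present 2 times in the Cbl window and 1 time each in those of Lat and Sla2, and it was absent from both Lck windows. So short a motif is common. On either strand it was in 51.5% of the 32851 mouse promoters of this length and in 25 of the 46 promoters (54.3%) of the 32 genes described here that the promoter table holds. The longer GAAAGT, which contains GAAAG, was in 12.3% of all promoters and in 3 of those 46 (6.52%), and in none of the 5 printed. A match describes letters in a window and was not linked to any binding.

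Values are FPKM, reads scaled to transcript length and library size, summed over the transcripts of a gene. Depth estimated from the lowest FPKM steps was 36.6 to 50.0 M reads in the Blimp-1 libraries and 18.6 to 41.6 M in the empty vector libraries. Prdm1 stood at 9.91, 12.8 and 9.45 FPKM in Blimp-1 libraries and at 0.996, 2.03 and 1.38 FPKM in empty vector libraries. The vector's own copy can add to those reads, so Prdm1 checks the labels only. Empty vector replicate 3 lay apart on the first principal component of all genes, at 33.67 against -22.7 to 12.64 for the other 5 libraries. All 6 CD4 T cell markers were expressed, and of these Thy1 was lower with Blimp-1 in 3 of 3 pairs (log2 difference -0.30). B cell markers summed to 1.77 to 6.17 FPKM in Blimp-1 and 1.88 to 5.29 FPKM in empty vector libraries, and 7 myeloid markers summed to 2.67 to 3.78 FPKM in Blimp-1 and 2.55 to 2.91 FPKM in empty vector libraries. NK cell markers summed to 13.8 to 35.7 FPKM in Blimp-1 libraries and 3.34 to 28.5 FPKM in empty vector libraries. Most of that was Klrd1, while Ncr1 was listed at 0 in every library. The haemoglobin gene Hba-a1 reached 18.7 FPKM in empty vector replicate 3 and at most 2.98 FPKM in the other libraries. The 4 activation markers Il2ra, Cd44, Tfrc and Mki67 summed to 256 to 349 FPKM in Blimp-1 libraries and to 256 to 434 FPKM in empty vector libraries, highest in replicate 3 of each vector. Of these, Cd44 had 53.1, 44.2 and 45.3 FPKM in Blimp-1 libraries and 42.1, 40.4 and 31.0 FPKM in empty vector libraries, with no overlap (log2 difference 0.33). Il2ra differed by -0.19, -0.0032 and -0.68 on the log2 scale in pairs 1, 2 and 3, a mean of -0.29. Without pair 3 its log2 difference was -0.098. Neither Cd44 nor Il2ra passed limma's test over all genes with all pairs, nor did Thy1. The part of these other markers in the results below was not tested. In bulk RNA, fewer cells of a type and less RNA per cell cannot be told apart.

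The machinery as a whole was abundant and took up a like share of the RNA with either vector. Together the 41 genes made up 0.947%, 1.13% and 0.986% of summed FPKM in the Blimp-1 libraries and 0.933%, 1.17% and 0.888% in the empty vector libraries. With both vectors the share was highest in replicate 2. All 41 passed the filter of 1 FPKM in at least 3 libraries, 25 lay above the 90th percentile of the 10856 genes tested, and 40 lay above the median of 11.45 FPKM.

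The levels of the members differed widely. Cd3g, the gamma chain of CD3, was highest at 492 FPKM on average over the 6 libraries. It was followed by Dgka, a diacylglycerol kinase that removes the second messenger of phospholipase C, at 403 FPKM, and by Ptprc, which encodes the membrane phosphatase CD45, at 354 FPKM. The adhesion receptor Cd2 at 354 FPKM and the CD3 delta chain Cd3d at 319 FPKM came next. At the low end were Ppp3ca, a catalytic subunit of calcineurin, at 16.6 FPKM, the transcription factor Nfatc2 at 16.4 FPKM and the Ras exchange factor Sos1 at 5.52 FPKM. In that order 37 of the 40 neighbouring genes overlapped in their range over libraries. The 3 breaks fell after Lck, after Grap2 and before Sos1. In all, 17 genes averaged at least 100 FPKM.

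**Figure D1:**
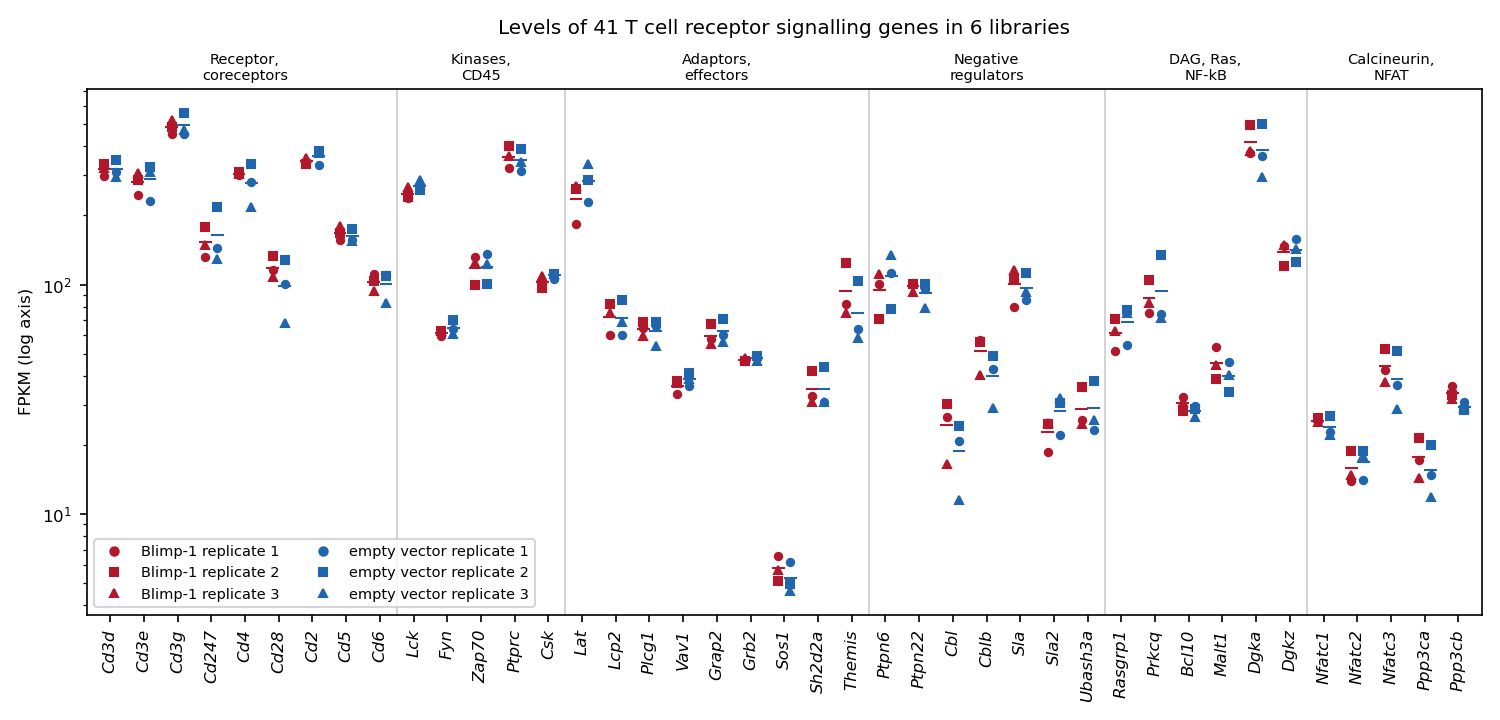
FPKM on a log axis for each of the 41 genes in each library, grouped by role; red marks are Blimp-1 libraries, blue marks are empty vector libraries, the marker shape gives the replicate number and short lines are means of 3. Cd3g is highest and Sos1 lowest, and Ppp3cb is the gene whose red marks all lie above its blue marks.

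No member differed between the vectors at an adjusted p below 0.05 in limma's test over all 10856 genes. Without the replicate number in the model, 0 genes of the table were called in either direction (0.0% of those tested), the smallest unadjusted p of a member was 0.143 and its adjusted p was 0.998. At an unadjusted p below 0.05 that fit held 122 genes of the table and 0 members. With the replicate number as a block, 1 gene was called higher (Prdm1) and 1 lower (Igfbp4), 0.00921% of the genes tested in each direction, and neither is a member. The smallest adjusted p of a member in the blocked limma fit was 0.141. The ratio of mean FPKM, Blimp-1 over empty vector, ran from 0.810 for Sla2 to 1.295 for Cbl. The blocked 95% interval of the log2 difference lay within 0.3 of 0 on either side for 24 members.

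The median log2 difference was 0.01 over the members, beside -0.01 over all genes tested, and the median size of the difference was 0.09 beside 0.11. Libraries of the same replicate number were taken as pairs, because they deviated together from the vector means. In pairs 1, 2 and 3 the members' median difference was 0.02, -0.06 and 0.13. A count that needs no model gave a like picture. Of the 41 genes, 10 (24.39%) were higher with Blimp-1 in 3 of 3 pairs, beside 22.9% of all genes tested, and 9 (21.95%) were lower in 3 of 3, beside 22.8%. In 1 member, Ppp3cb, all Blimp-1 values lay above all empty vector values, beside 2.28% of all genes, and in 0 members they all lay below, beside 2.34%. At an unadjusted p below 0.05 in the blocked fit, 6 members (14.63%) were higher, beside 9.77% of all genes, and 3 (7.317%) were lower, beside 10.7%. These shares lie near those of all genes, and the members are named below as descriptions.

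The number of calls changed with the pair left out. When both libraries of replicate 3 were left out of the blocked limma fit, 598 genes of the table were called higher (5.61% of 10659) and 720 lower (6.75%). Among the members 4 (9.756%) were then called higher (Cbl, Cblb, Themis and Ppp3cb) and 3 (7.317%) lower (Lat, Sla2 and Cd247). That fit rests on 2 pairs, so limma took the spread of a gene largely from that of other genes. The calls of that fit among the members were again near the share of the whole table. With pair 1 left out instead, the blocked fit called 1 gene higher and 1 lower. With pair 2 left out it called 3 higher and 5 lower, and no member was called in either fit. Why the numbers differ was not tested.

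**Figure D2:**
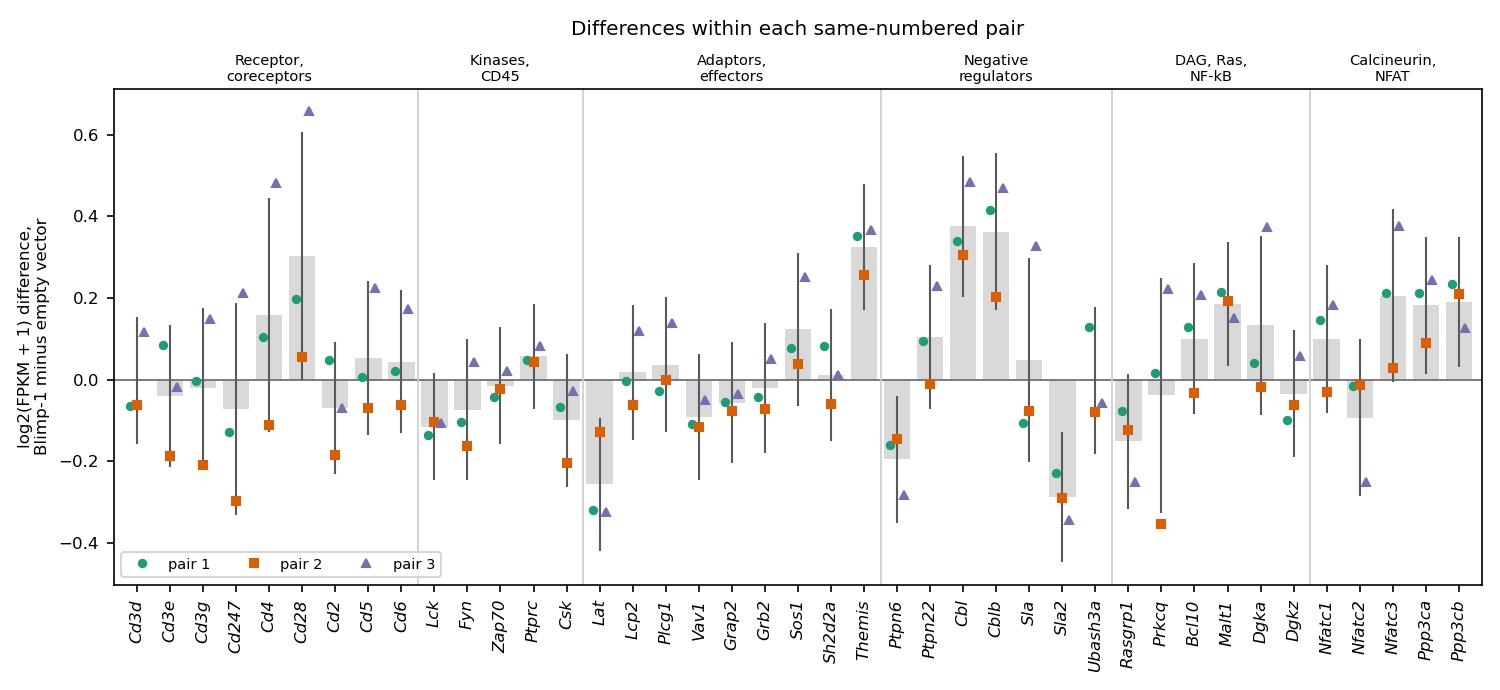
Difference in log2(FPKM + 1), Blimp-1 minus empty vector, for each gene within each same-numbered pair (coloured marks), with the mean of 3 pairs as a grey bar and the 95% interval of the blocked limma fit as a line. Cbl, Cblb and Themis lie above 0 and Lat, Sla2 and Ptpn6 below 0 in all 3 pairs, while Cd4, Cd28, Sla and Dgka have their highest difference in pair 3.

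Among the receptor chains and coreceptors the values with the 2 vectors overlapped throughout. Cd3d had 297, 336 and 321 FPKM in Blimp-1 libraries and 311, 351 and 296 FPKM in empty vector libraries. Cd3e, the CD3 epsilon chain, had 246, 287 and 307 FPKM in Blimp-1 libraries and 232, 327 and 310 FPKM in empty vector libraries. Cd3g had 454, 486 and 523 FPKM in Blimp-1 libraries and 455, 562 and 472 FPKM in empty vector libraries. The log2 differences of these chains were -0.00, -0.04 and -0.02, and their blocked 95% intervals together ran from -0.22 to 0.17.

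Cd247 encodes the zeta chain, which carries most of the receptor's phosphorylation motifs. Its values were 132, 178 and 149 FPKM in Blimp-1 libraries and 144, 218 and 129 FPKM in empty vector libraries, lower with Blimp-1 in pairs 1 and 2 and higher in pair 3. The log2 difference was -0.07 over 3 pairs (limma, blocked, adjusted p = 0.724). It was -0.21 (limma, blocked, adjusted p = 0.0379) without pair 3, a fit on pairs 1 and 2 only. Cd4, the coreceptor that brings Lck to the receptor, had 301, 310 and 304 FPKM in Blimp-1 libraries and 279, 335 and 217 FPKM in empty vector libraries. Its Blimp-1 values were close together and lay inside the spread of the empty vector values. The log2 difference of 0.16 came from pair 3, at 0.48, and it was -0.0028 without that pair.

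Cd28, the costimulatory receptor engaged by the anti-CD28 antibody of the culture, had 115, 133 and 107 FPKM in Blimp-1 libraries and 100, 128 and 67.7 FPKM in empty vector libraries. It was higher with Blimp-1 in 3 of 3 pairs, by 0.20, 0.06 and 0.66 on the log2 scale, and the lowest value was that of empty vector replicate 3. The mean log2 difference was 0.30 (limma, blocked, adjusted p = 0.244). The other surface receptors differed less. Cd2 averaged 345 ± 10.9 FPKM with Blimp-1 and 363 ± 27.5 FPKM with the empty vector (SD, n = 3 each, as for all means here). Cd5, an inhibitory receptor whose level tracks receptor signal strength, averaged 168 ± 11.7 FPKM with Blimp-1 and 162 ± 11.7 FPKM with the empty vector. Cd6, its close relative, averaged 103 ± 8.82 FPKM with Blimp-1 and 100.5 ± 15.1 FPKM with the empty vector.

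The kinases next to the receptor differed little between the vectors. Lck, the Src family kinase that starts the cascade, had 237, 240 and 265 FPKM in Blimp-1 libraries and 261, 258 and 286 FPKM in empty vector libraries. It was lower with Blimp-1 in 3 of 3 pairs, by -0.14, -0.10 and -0.11 on the log2 scale, although the highest Blimp-1 value exceeded 2 of the empty vector values. The mean difference of -0.11 had a blocked 95% interval of -0.25 to 0.02. Fyn, also a Src family kinase, averaged 61.6 ± 1.82 FPKM with Blimp-1 and 65.0 ± 4.92 FPKM with the empty vector. Zap70 averaged 118 ± 16.9 FPKM with Blimp-1 and 120 ± 17.5 FPKM with the empty vector, and its log2 difference was -0.01 with a blocked interval of -0.16 to 0.13.

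The regulators of these kinases were as close. Csk, which inactivates Lck by phosphorylating its tail, averaged 102 ± 6.59 FPKM with Blimp-1 and 110 ± 3.33 FPKM with the empty vector, lower in 3 of 3 pairs. Ptprc, the phosphatase that removes that tail phosphate, averaged 361 ± 39.7 FPKM with Blimp-1 and 347 ± 39.3 FPKM with the empty vector. It was higher with Blimp-1 in 3 of 3 pairs by 0.05, 0.04 and 0.08 on the log2 scale. Of its 3 transcripts, 1 has no symbol in the table. From the other 2 alone Ptprc averaged 276 ± 73.8 FPKM with Blimp-1 and 269 ± 59.3 FPKM with the empty vector, and it was then higher in pairs 1 and 2 and lower in pair 3.

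Adaptors and effectors held both directions. Lat, the membrane scaffold on which the proximal complex assembles, had 183, 260 and 268 FPKM in Blimp-1 libraries and 228, 284 and 336 FPKM in empty vector libraries. Within each pair the Blimp-1 library was lower, by -0.32, -0.13 and -0.32 on the log2 scale. The vectors' ranges overlapped, because both replicate 1 libraries were low. The mean difference was -0.26, with a 95% interval of -0.73 to 0.22 without the block and -0.42 to -0.10 with it (limma, blocked, adjusted p = 0.156).

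Themis, an adaptor best known from thymocyte selection, had 82.1, 124 and 75.3 FPKM in Blimp-1 libraries and 64.2, 104 and 58.2 FPKM in empty vector libraries. It was higher with Blimp-1 in 3 of 3 pairs, by 0.35, 0.26 and 0.37 on the log2 scale, and in both vectors replicate 2 was highest. The mean difference was 0.32, with a 95% interval of -0.30 to 0.95 without the block and 0.17 to 0.48 with it (limma, blocked, adjusted p = 0.141).

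Sos1 had 6.57, 5.10 and 5.70 FPKM in Blimp-1 libraries and 6.17, 4.93 and 4.63 FPKM in empty vector libraries, a log2 difference of 0.12. It was higher with Blimp-1 in each pair, and the ranges overlapped. Grb2, the adaptor that brings Sos1 to Lat, had the smallest ratio of highest to lowest library of the 41 genes, 1.06, and averaged 47.0 ± 0.851 FPKM with Blimp-1 and 47.7 ± 1.33 FPKM with the empty vector. Lcp2, the Lat partner SLP-76, averaged 72.3 ± 11.3 FPKM with Blimp-1 and 71.6 ± 13.0 FPKM with the empty vector. Grap2, the adaptor Gads that links it to Lat, averaged 60.0 ± 6.36 FPKM with Blimp-1 and 62.5 ± 7.54 FPKM with the empty vector, and was lower with Blimp-1 in 3 of 3 pairs.

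The means of the downstream effectors differed between the vectors by less than the SD over replicates. That SD includes variation that same-numbered libraries share. Plcg1, the phospholipase C that makes diacylglycerol and inositol trisphosphate, averaged 64.2 ± 4.48 FPKM with Blimp-1 and 62.8 ± 7.72 FPKM with the empty vector. Vav1, a guanine nucleotide exchange factor, averaged 36.2 ± 2.51 FPKM with Blimp-1 and 38.6 ± 2.62 FPKM with the empty vector, lower with Blimp-1 in 3 of 3 pairs. Sh2d2a, the T cell specific adaptor that binds Lck, averaged 35.1 ± 5.96 FPKM with Blimp-1 and 35.0 ± 7.54 FPKM with the empty vector.

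As grouped here, the 7 negative regulators had a median log2 difference of 0.05 and a median size of the difference of 0.20. That size was the largest of the 6 role groups, beside 0.18 for the calcineurin and NFAT group. It depends on the grouping, since Csk, Cd5, Dgka and Dgkz, which also limit the signal, were placed in other groups. Their log2 differences were -0.10, 0.05, 0.13 and -0.03. Cbl, an E3 ubiquitin ligase that targets activated receptor complexes, had 26.4, 30.2 and 16.4 FPKM in Blimp-1 libraries and 20.7, 24.2 and 11.5 FPKM in empty vector libraries. Within each pair the Blimp-1 library was higher, by 0.34, 0.30 and 0.48 on the log2 scale. Both replicate 3 libraries were low, so that Blimp-1 replicate 3 lay below 2 of the empty vector libraries. The mean difference was 0.38, with a 95% interval of -0.36 to 1.11 without the block and 0.20 to 0.55 with it (limma, blocked, adjusted p = 0.141).

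Cblb, the relative of Cbl that sets the need for costimulation, had 57.3, 56.1 and 40.5 FPKM in Blimp-1 libraries and 42.7, 48.7 and 29.0 FPKM in empty vector libraries. It too was higher with Blimp-1 in 3 of 3 pairs, by 0.42, 0.20 and 0.47 on the log2 scale, with an overlap made by the low replicate 3 libraries. The mean difference was 0.36, with a 95% interval of -0.17 to 0.89 without the block and 0.17 to 0.55 with it (limma, blocked, adjusted p = 0.145).

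Sla2, the adaptor SLAP-2, which works with Cbl to lower the receptor at the surface, went the other way. It had 18.6, 24.8 and 24.9 FPKM in Blimp-1 libraries and 22.0, 30.5 and 31.9 FPKM in empty vector libraries. Every pair was lower with Blimp-1, by -0.23, -0.29 and -0.34 on the log2 scale, and of the empty vector libraries replicate 1 lay within the range of the Blimp-1 libraries. The mean difference was -0.29, with a 95% interval of -0.73 to 0.15 without the block and -0.45 to -0.13 with it (limma, blocked, adjusted p = 0.146). Sla, the related adaptor SLAP, averaged 101 ± 18.9 FPKM with Blimp-1 and 96.6 ± 13.5 FPKM with the empty vector and was lower in pairs 1 and 2 and higher in pair 3.

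Ptpn6, the phosphatase SHP-1, had 101, 70.9 and 111 FPKM in Blimp-1 libraries and 113, 78.5 and 135 FPKM in empty vector libraries. It was lower with Blimp-1 in 3 of 3 pairs, by -0.16, -0.14 and -0.28 on the log2 scale, and in both vectors replicate 2 was lowest. The mean difference was -0.20, with a blocked interval of -0.35 to -0.04 (limma, adjusted p = 0.189). Ptpn22, a phosphatase that acts on Lck and Zap70, had 102, 100.2 and 92.9 FPKM in Blimp-1 libraries and 95.4, 101 and 79.1 FPKM in empty vector libraries. Its ranges overlapped, and the log2 difference was 0.10. Ubash3a, a suppressor of receptor signalling also called STS-2, averaged 28.7 ± 6.22 FPKM with Blimp-1 and 29.0 ± 7.87 FPKM with the empty vector.

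In the diacylglycerol and NF-kB branch, Malt1 was the member at an unadjusted p below 0.05 with the block. Malt1, the protease of the complex that activates NF-kB, had 53.3, 38.9 and 44.8 FPKM in Blimp-1 libraries and 45.8, 33.9 and 40.2 FPKM in empty vector libraries. It was higher with Blimp-1 by 0.21, 0.19 and 0.15 on the log2 scale in the 3 pairs, a mean of 0.19 (limma, blocked, adjusted p = 0.195). The ranges overlapped, and in both vectors replicate 1 was highest. Its partner Bcl10 lay between 28.0 and 32.4 FPKM in Blimp-1 libraries and between 26.5 and 29.5 FPKM in empty vector libraries. Prkcq, the protein kinase C theta that acts above them, averaged 87.8 ± 15.5 FPKM with Blimp-1 and 93.3 ± 35.7 FPKM with the empty vector, where replicate 2 alone reached 134 FPKM.

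Rasgrp1, the diacylglycerol-bound activator of Ras, had 51.5, 70.9 and 62.8 FPKM in Blimp-1 libraries and 54.4, 77.3 and 74.9 FPKM in empty vector libraries. It was lower with Blimp-1 in 3 of 3 pairs with overlapping ranges, and the log2 difference was -0.15. Dgka had 375, 497 and 382 FPKM in Blimp-1 libraries and 364, 503 and 294 FPKM in empty vector libraries. Its log2 difference of 0.13 again came from pair 3, at 0.37, while pairs 1 and 2 gave 0.04 and -0.02. Dgkz, the other diacylglycerol kinase, averaged 139 ± 16.0 FPKM with Blimp-1 and 142 ± 16.0 FPKM with the empty vector.

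The calcineurin and NFAT group had the highest median of the role groups, 0.18 on the log2 scale over 5 genes. Ppp3cb, the beta catalytic subunit of calcineurin, had 36.2, 33.1 and 31.7 FPKM in Blimp-1 libraries and 30.7, 28.5 and 28.9 FPKM in empty vector libraries. It was the one member whose vector ranges did not overlap. Its log2 difference was 0.19, with a 95% interval of -0.08 to 0.46 without the block and 0.03 to 0.35 with it (limma, blocked, adjusted p = 0.201). Ppp3ca, the alpha subunit, had 17.3, 21.4 and 14.3 FPKM in Blimp-1 libraries and 14.8, 20.0 and 11.9 FPKM in empty vector libraries. It was higher with Blimp-1 in each pair, by 0.21, 0.09 and 0.24 on the log2 scale, but the ranges overlapped.

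Of the NFAT transcription factors that calcineurin activates, Nfatc3 had 42.5, 52.5 and 37.4 FPKM in Blimp-1 libraries and 36.5, 51.5 and 28.6 FPKM in empty vector libraries. It was higher in 3 of 3 pairs, though by only 0.03 in pair 2, and its mean log2 difference was 0.21. Nfatc1 averaged 25.5 ± 0.566 FPKM with Blimp-1 and 23.9 ± 2.55 FPKM with the empty vector. Nfatc2 averaged 15.8 ± 2.57 FPKM with Blimp-1 and 16.9 ± 2.55 FPKM with the empty vector, lower with Blimp-1 in 3 of 3 pairs by -0.02, -0.01 and -0.25 on the log2 scale. The 3 factors thus gave log2 differences of 0.21, 0.10 and -0.09, none past the test.

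For most members the replicate number accounted for more of the variation than the vector did. The shares given here were not adjusted for the replicate number having more levels than the vector. The replicate number held a median of 78.2% of the sum of squares of log2(FPKM + 1), the vector 11.6% and the remainder 9.17%. Over all genes tested the same medians were 75.5%, 9.54% and 8.39%. The share of the number exceeded that of the vector in 38 of the 41 genes (92.7%), beside 90.1% of all genes tested. The exceptions were Ppp3cb, with 68.7% for the vector, Csk with 42.2% and Grb2 with 13.1%. In Zap70 the number held 99.3%. The members were highest in a replicate 2 library in 25 of 41 cases (60.98%), beside 36.8% of all genes, and lowest in empty vector replicate 3 in 20 cases (48.78%), beside 28.1%. The ratio of the highest to the lowest library passed 1.5 in 16 members and was largest for Cbl, at 2.63.

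**Figure D3:**
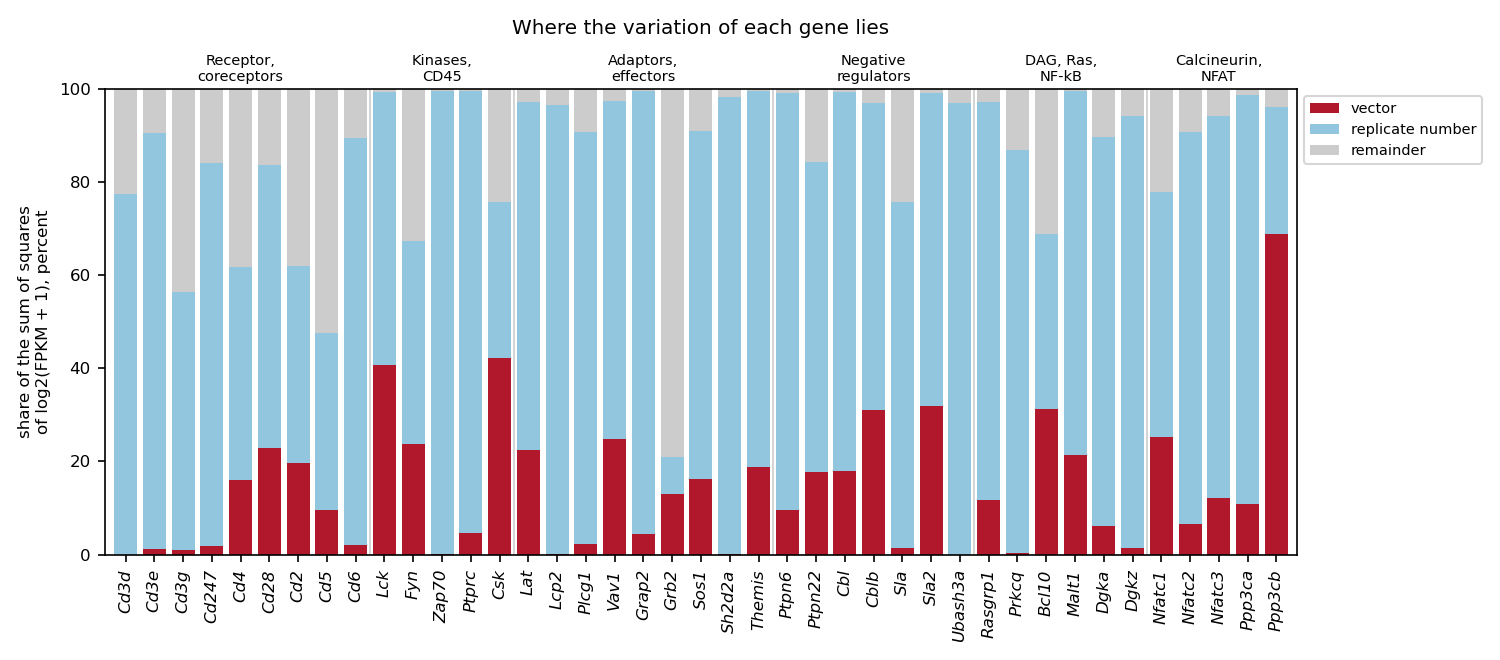
Share of the sum of squares of log2(FPKM + 1) over 6 libraries held by the vector (red), the replicate number (light blue) and the remainder (grey), in percent, for each gene. The replicate number holds more than the vector in 38 genes, and Ppp3cb has the largest share for the vector, at 68.7%.

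Transcript length and base composition moved with the differences over the whole table. The median log2 difference of all genes went from -0.08 in the shortest quintile (median length 1107 bases) to 0.08 in the longest (6032 bases), and from 0.05 in the quintile lowest in GC (41.9%) to -0.06 in the highest (58.1%). Each of the 3 pairs had the same trend between its end quintiles. Cbl at 11372 bases, Cblb at 6648 bases and Themis at 5082 bases with 38.5% GC lie at the long or low-GC end. Lat at 1235 bases with 57.9% GC lies at the short and high-GC end. After the trend was removed from each library, the log2 differences were 0.26 for Cbl, 0.28 for Cblb, 0.23 for Themis, -0.16 for Lat and -0.27 for Sla2. At an unadjusted p below 0.05 in the corrected blocked fit, 4 members were higher (Cbl, Cblb, Themis and Ppp3ca), beside 8.84% of all genes, and 3 were lower (Lat, Sla2 and Rasgrp1), beside 8.17%. Malt1 at 0.11, Ppp3cb at 0.13 and Ptpn6 at -0.13 no longer met that p.

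**Figure D4:**
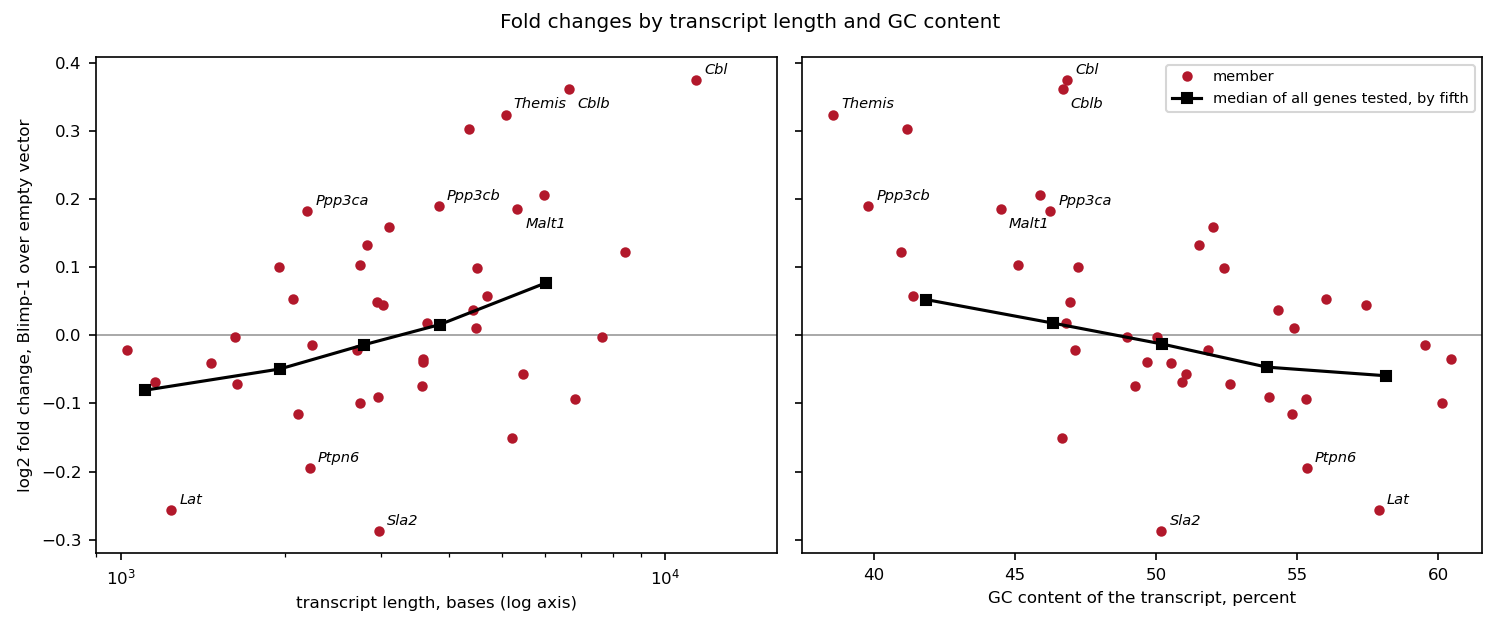
Log2 fold change, Blimp-1 over empty vector, of each of the 41 genes (red points) against transcript length in bases on a log axis (left) and GC content in percent (right), with medians of all genes tested in quintiles of each property (black squares). The medians go from -0.08 to 0.08 with length and from 0.05 to -0.06 with GC content; named points are genes at an unadjusted p below 0.05 in the blocked fit.

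Several members have more than 1 transcript in the table, 12 of the 41. Shares between transcripts are the authors' estimates from single reads of 50 cycles, so small shares are uncertain. Lck can be transcribed from 2 regions whose starts lie 15269 bp apart, a distal promoter known to serve mature T cells and a proximal one known from thymocytes. The upstream start gave 204, 199 and 219 FPKM in Blimp-1 libraries and 219, 199 and 242 FPKM in empty vector libraries. The downstream starts gave 33.2, 41.5 and 46.8 FPKM in Blimp-1 libraries and 41.6, 59.4 and 43.4 FPKM in empty vector libraries. The upstream start thus accounted for 83.7 ± 2.00% of Lck FPKM with Blimp-1 and 81.9 ± 4.33% with the empty vector, a difference within the spread between libraries.

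Ptpn6 also has 2 starts, 5560 bp apart. The transcript from the upstream start made up 20.9%, 22.0% and 19.3% of Ptpn6 FPKM in Blimp-1 libraries and 18.2%, 17.6% and 10.5% in empty vector libraries. The 2 sets did not overlap, and the lowest share was again that of empty vector replicate 3. In Dgkz, with starts 13230 bp apart, the downstream one gave 31.1%, 24.9% and 26.8% in Blimp-1 libraries and 28.1%, 19.4% and 18.6% in empty vector libraries, with overlap. These shares were not tested, and how often such shares do not overlap over all genes was not counted.

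The 3 Ptprc transcripts start within 39 bp of each other and differ in exon number. The one with 30 exons held 55.4 ± 11.1% of Ptprc FPKM with Blimp-1 and 57.3 ± 7.03% with the empty vector. The one with 29 exons held 24.2 ± 13.5% with Blimp-1 and 23.1 ± 8.62% with the empty vector, and the one with 33 exons 20.4 ± 3.04% with Blimp-1 and 19.6 ± 3.75% with the empty vector. In Cd247 a single transcript held 98.8% with Blimp-1 and 99.0% with the empty vector. For Nfatc2 the transcript with 10 exons held 54.8%, 47.0% and 51.4% in Blimp-1 libraries and 50.8%, 39.9% and 41.5% in empty vector libraries. Its share was higher with Blimp-1 in each pair, with overlap, and was not tested. The Nfatc2 transcript with 11 exons held 46.3 ± 4.57% with Blimp-1 and 53.5 ± 6.66% with the empty vector. From that transcript alone, the highest on average, the log2 difference of Nfatc2 was -0.27, against -0.09 for the sum. The leading transcript held 94.0% with either vector in Cd6, 75.1% with Blimp-1 and 72.0% with the empty vector in Fyn, and 35.3% with Blimp-1 and 36.5% with the empty vector in Nfatc1. In Sh2d2a it held 90.5% with either vector, in Sla 98.2% with Blimp-1 and 98.9% with the empty vector, and in Vav1 87.9% with Blimp-1 and 85.4% with the empty vector.

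A wider list of 71 other genes, put together as genes of the same pathway, was read beside the 41. Of these, 69 passed the filter on low values, and Rnf128 and Crtam did not. None was called at an adjusted p below 0.05 in limma with or without the block. In the blocked fit 9 of the 69 (13.04%) were higher and 6 (8.696%) lower at an unadjusted p below 0.05, beside the 9.77% and 10.7% of all genes given above. Their median log2 difference was 0.04. Without pair 3 the blocked limma fit called 3 of 68 higher (Nfkb1, Itpr1 and Pak2), 4.41% beside 5.61% of all genes. It called 5 lower, among them Txk, Tec, Lax1 and Dok2, which is 7.35% beside 6.75%. These shares lie near those of all genes.

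Of the 10 with the smallest blocked p, 9 are described here, all at a limma adjusted p of 0.141 to 0.201 with the block. Txk, a Tec family kinase, had 17.5, 20.7 and 21.5 FPKM in Blimp-1 libraries and 24.5, 28.5 and 26.4 FPKM in empty vector libraries, a log2 difference of -0.40. Every Blimp-1 value lay below every empty vector value. This was so in 2 of the 69 genes (2.899%), beside 2.34% of all genes. The reverse was so in 1 of the 69 (Nfkb1, 1.449%), beside 2.28%. Itpr1, the inositol trisphosphate receptor that releases calcium, had 12.6, 14.4 and 9.77 FPKM in Blimp-1 libraries and 9.55, 10.8 and 5.77 FPKM in empty vector libraries, a log2 difference of 0.47. Its ranges overlapped, and each pair was higher with Blimp-1.

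Nfkb1, which encodes the p105 precursor of an NF-kB subunit, had 91.0, 88.5 and 82.8 FPKM in Blimp-1 libraries and 73.7, 79.2 and 64.9 FPKM in empty vector libraries, a log2 difference of 0.27 with no overlap. The kinases Pak2 and Map3k7 were higher with Blimp-1 in each pair, with log2 differences of 0.29 and 0.23, as was the inhibitory receptor Ctla4 with 0.20. The adaptor Dok2, Pdk1 and the calcineurin inhibitor Tbc1d10c were lower in each pair, with log2 differences of -0.27, -0.24 and -0.17. Under this symbol Pdk1 is a pyruvate dehydrogenase kinase, and the signalling kinase often called PDK1 has another symbol. As for the members, none of these passed the test over all genes.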

How the data were processed

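RNA-seq libraries, 3 per vector, were analysed from 1 deposited table of 29868 RefSeq transcripts. Its values are FPKM as the authors deposited them, identified from the labels and the values since the header names no unit. Cufflinks 2.2, CASAVA 1.8.2, Partek 6.6 and mm9 stand in the submitters' processing notes, without roles. The sources used here name no aligner, annotation release, filter or strand setting. FPKM is relative to the library total, so it shows shares of RNA and not amounts per cell.

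Transcripts were named by accession (29310) or symbol (430) with a RefSeq gene table of GRCm38.p6, 110 kept their own symbol and 18 had none. Summing FPKM per gene gave 22607 genes, of which 4332 have more than 1 transcript. The test was limma 3.58.1 (R 4.3.3, trended empirical Bayes, two-sided) on log2(FPKM + 1), for the 10856 genes that reached 1 FPKM in 3 or more libraries. The vector was its single term, and p-values were adjusted by Benjamini-Hochberg over all these genes at 0.05. This scale understates changes of low genes. The fits were tested on simulated data. For the fit without the block the simulated libraries shared no replicate effects, so that check does not cover such effects. The labels give replicates 1 to 3 in each vector but not what a number marks. Over genes, the deviation of a library from its vector's mean correlated with that of its same-numbered partner at 0.797, 0.808 and 0.702, and at -0.249 to -0.538 for other combinations. The numbers were therefore taken as pairs, and limma was also run with the number as a replicate block. Other alternatives were the pseudocount, filters, scaling, the transcript used, each library or pair left out and, added after the data were seen, the symbol column alone and a correction for GC content and length with splines of 4 degrees of freedom. That correction covered 10655 genes, 98.1% of those tested.

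Exon numbers and distances between transcript starts come from GENCODE transcripts of GRCm38 matched to the RefSeq ones. Depth was estimated by taking the lowest FPKM steps as 1 read, with an assumed fragment of 200 bases. Overlapping genes and near-identical copies can share reads. Members and lists were chosen with earlier results of these data known. All members are named, and values in every library are given for the receptor chains, Cd4 and Cd28, for members at an unadjusted blocked p below 0.05 or with no overlap between the vectors, and for the 6 largest differences among the rest. Of the wider list, up to 10 genes by blocked p are named, and 1 of them is not reported here. The listed CD8 T cell markers summed to at most 11.0 FPKM in any library, mostly Cd8b1, with Cd8a at 0.169 FPKM or less. Of the 3 markers listed for gamma delta T cells only Sox13 was found, at 0.156 FPKM or less.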

Additional observations from a re-analysis of the deposited data

How the results depend on the processing

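Across 18 alternatives and 738 values of members, 75 values changed sign, in 21 genes whose log2 difference was at most 0.16 in size. With the replicate block, 0 members were called higher and 0 lower, as without it, and no sign changed. Of all 18 alternatives, 1 called any member. With the replicate block and no pair 3, 4 members were called higher and 3 lower, and the signs that changed gave Cd4 -0.0028, Cd5 -0.032, Cd6 -0.021, Lcp2 -0.032, Plcg1 -0.014, Sla -0.090 and Ubash3a 0.025 (log2 differences, as throughout). With the block and no pair 2 they gave Cd3d 0.027, Cd3e 0.033, Cd3g 0.072, Cd247 0.041, Ubash3a 0.036, Grb2 0.0043 and Prkcq 0.12, and with no pair 1 Cd3d 0.028 and Sh2d2a -0.024. Median-ratio scaling gave Cd3d 0.0036 and Ubash3a 0.0035, and the highest transcript alone gave Ptprc -0.0020. The GC and length correction, with or without the replicate block, gave Cd3d 0.045, Cd3e 0.015, Cd3g 0.033, Cd2 0.00053, Zap70 0.058, Lcp2 -0.0064, Ptprc -0.022, Grb2 0.013 and Sos1 -0.0058. Leaving out 1 library at a time gave ranges of -0.056 to 0.068 for Cd3d, -0.19 to 0.054 for Cd3e, -0.081 to 0.071 for Cd3g, -0.22 to 0.15 for Cd247, -0.086 to 0.11 for Cd6, -0.17 to 0.20 for Ubash3a, -0.20 to 0.25 for Prkcq and -0.13 to 0.11 for Zap70. It also gave -0.10 to 0.15 for Lcp2, -0.066 to 0.10 for Plcg1, -0.020 to 0.14 for Ptprc, -0.12 to 0.18 for Sh2d2a, -0.12 to 0.065 for Dgkz, -0.063 to 0.21 for Sla, -0.14 to 0.037 for Grap2, -0.0057 to 0.31 for Cd4 and -0.047 to 0.34 for Dgka. Genes that kept their sign also moved when 1 library was left out, with ranges of 0.073 to 0.62 for Cbl, 0.15 to 0.52 for Cblb, 0.11 to 0.58 for Themis, 0.070 to 0.29 for Malt1, 0.016 to 0.37 for Ppp3ca, 0.14 to 0.23 for Ppp3cb, 0.059 to 0.51 for Cd28 and 0.011 to 0.42 for Nfatc3, and of -0.40 to -0.081 for Lat, -0.45 to -0.15 for Sla2, -0.41 to -0.0057 for Ptpn6 and -0.31 to -0.028 for Rasgrp1. Cbl and Cblb were lowest without empty vector replicate 3. The median over members ranged from -0.026 to 0.11 with 1 library left out, the highest without empty vector replicate 2, and was -0.032 with the block and no pair 3. Of all genes, the block without pair 3 called 598 higher and 720 lower, against 1 and 1 with all pairs. Without pair 1 it called 1 and 1, and without pair 2 it called 3 and 5. The cause of these shifts was not tested. In the shallowest library 1 FPKM stands for about 18.6 reads on a transcript of 1 kb.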
